A study of Homo sapiens with 4 samples.

Results

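The genes described here are 10 members of the Notch pathway, taken by name from the tables of the series: the receptors NOTCH1, NOTCH2 and NOTCH3, the ligands JAG1, JAG2 and DLL1, and the target genes HES1, HES4, HEY1 and NRARP. All 10 names were found once among 51103 genes. Polyadenylated RNA was sequenced from cells labelled SCC-15, a human oral squamous cell carcinoma line, 2 libraries with lentiviral REEP6 overexpression and 2 of a negative control (NC in the labels), with RNA collected after 48 hours. The labels do not say whether the control carried an empty vector, whether the overexpressing line was 1 clone, or whether the 2 libraries of a group came from different cultures. The p-values therefore reflect only how these libraries varied, which may be technical. The series asked which genes and pathways respond to REEP6, a membrane protein of the endoplasmic reticulum.

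Notch receptors are single-pass membrane proteins that bind Jagged or Delta-like ligands on a neighbouring cell. Binding leads to cleavage of the receptor by an ADAM protease and then by gamma-secretase, which frees the intracellular domain to enter the nucleus. There it joins the DNA-binding protein RBPJ and a Mastermind coactivator and switches on genes such as the HES and HEY repressors and NRARP, a feedback inhibitor that binds the intracellular domain. In stratified epithelium Notch signalling is known to promote differentiation, and in neuroendocrine and neural lineages HES and HEY proteins are known to hold back proneural factors.

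Before these genes are compared, the cell type in the labels was set against its markers, and the data went against it. Of 12 squamous epithelial markers 11 stayed under 1 FPKM in every library, FPKM being counts scaled for gene length and for the library's total. The basal keratins KRT5 and KRT14 reached at most 0.0352 and 0.173 FPKM, the squamous regulator TP63 at most 0.123 FPKM, and the epithelial cadherin CDH1 at most 0.0122 FPKM. The exception was the integrin ITGB4, at 13.1 to 18.9 FPKM. The simple-epithelial keratins KRT8 and KRT18 were abundant, at 164 to 231 FPKM. Of 10 neuroendocrine markers 7 were measured, led by the granin SCG2, at 363 and 371 FPKM in the controls and 188 and 172 FPKM with REEP6, while the transcription factor INSM1 had 0 counts in all 4 libraries. The cells are therefore called by their label only, and no other identity is given to them.

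**Figure D1:**
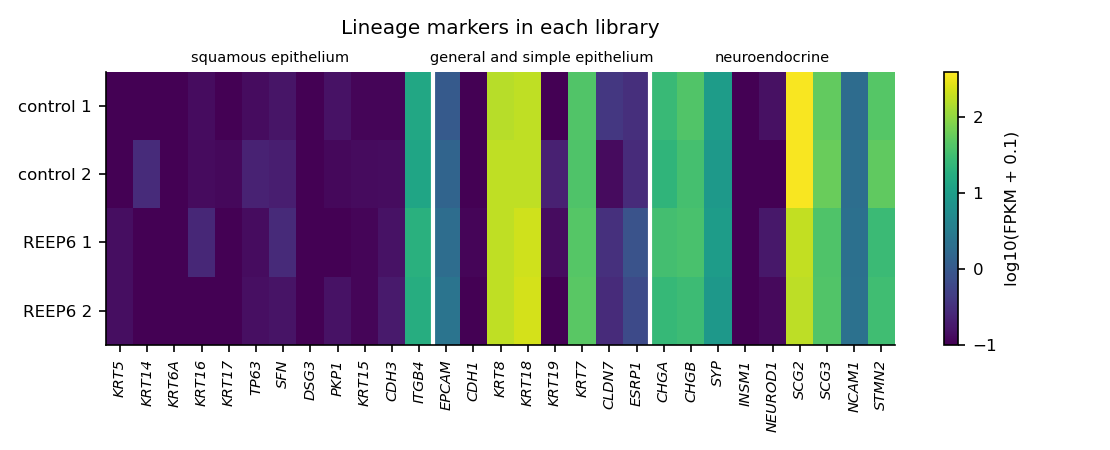
Heat map of marker genes (columns) in the 4 libraries (rows), with colour showing log10(FPKM + 0.1). The squamous markers other than ITGB4 are dark in all libraries, KRT8 and KRT18 are bright in all, and SCG2 is brighter in the controls (363 and 371 FPKM) than with REEP6 (188 and 172 FPKM).

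REEP6 had 11.1 and 12.6 FPKM in the controls and 20.0 and 20.9 FPKM in the libraries made to overexpress it, a log2 fold change of 0.82 ± 0.108 (SE, edgeR adjusted p 0.00119). REEP6 thus rose 1.76-fold and ranked 209 among the 1422 genes that rose. Its exons overlap PCSK4 on the opposite strand, which had 73 to 121 counts. Libraries held 12856256 to 15208629 counts in genes. With edgeR's quasi-likelihood test 25.1% of 13077 genes tested passed a Benjamini-Hochberg adjusted p of 0.05 (10.9% higher and 14.2% lower with REEP6), and this share is the background for every count below. Of those calls 43.4% were higher. With FPKM scaled to equal sums that share was 18.6%, and the log2 fold change of the median gene moved from -0.01 to -0.14. Control libraries summed to 262497 and 273154 FPKM and REEP6 libraries to 288404 and 287580 FPKM, so this sum moved with the groups, and its part in the results was not tested.

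The promoters of HES1 and HES4 are shown because they carry the sequence through which Notch is known to act on such genes, RBPJ sites facing each other. RefSeq windows from 250 bases before to 50 bases after the start (GRCh38.p14) were found for 8 of the 10 genes and searched on both strands for GTGGGAA, an RBPJ core, for GTGTGAA, a weaker form of it, and for the head-to-head pair of both, GTGGGAA and TTCACAC with 16 bases between them. HES1 and HES4 each held the pair. It was found in 2 of 35116 windows, 0.0057%, and these were HES1 and HES4. Other pairs of cores and other spacings were not searched, so this is not the share of all paired RBPJ sites. GTGGGAA alone was in 6.25% of the windows and GTGTGAA alone in 3%, and every match to the pair is also a match to both. None of the 6 other windows of these genes held either core. DLL1 and HEY1 had no window, so their promoters were not searched. Capitals mark the RBPJ cores in the sites below, the first on the gene's strand and the second read on the other strand.
HES1, chr3:194136063-194136092, plus strand: GTGGGAAagaaagtttgggaagtTTCACAC
HES4, chr1:1000145-1000174, minus strand: GTGGGAAagaatgcggagccgggTTCACAC
Over their 30 bases the sites were identical at 21 positions, 7 of them in the 16-base spacer. The other identical positions are the cores, which the search required to match. The HES1 site begins 85 bases and the HES4 site 77 bases before the RefSeq start. In GENCODE release 29 the HES4 gene begins at position 1000172, inside its site, whereas HES1 begins at position 194136145, downstream of its site. The 120 bases before the HES1 start (chr3:194136025-194136144, plus strand) show the site in its setting.
HES1 upstream: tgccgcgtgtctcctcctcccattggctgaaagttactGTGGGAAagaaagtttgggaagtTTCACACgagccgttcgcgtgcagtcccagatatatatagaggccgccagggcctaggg
A match describes letters in a window and does not show that RBPJ was bound in these cells.

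With REEP6 overexpression, the receptors NOTCH1 and NOTCH3 rose and the ligand JAG1 and the target gene HEY1 fell. These 4 were called among the 9 genes measured, 2 higher and 2 lower, against 25.1% of all genes tested. The 10 genes were chosen with earlier results of these data known, so this is not a neutral comparison. JAG2 was below the filter of 1 FPKM in at least 2 libraries. NOTCH3 passed that filter only through the REEP6 libraries, which favours a rise. In a fit without the filter, which tested all 10, the same directions held and NOTCH2 was also called higher and HES1 lower. That made 3 higher and 3 lower of 10, against 13.8% of 29161 genes (6.8% higher and 6.95% lower). This fit used a variance shared over genes, so its calls do not weigh each gene's own replicate spread. Those 29161 genes include all that fell below the filter, which 9 of the 10 passed, so that share is not a like background. The median log2 fold change of the 10 in that fit was 0.12, beside 0.03 for all genes. In 7 of the 10 genes the FPKM values of the groups did not overlap (4 higher and 3 lower with REEP6), as was so for 63.5% of all genes tested (28.2% higher and 35.3% lower). In bulk RNA, fewer cells that express a gene and less RNA per cell cannot be told apart.

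**Figure D2:**
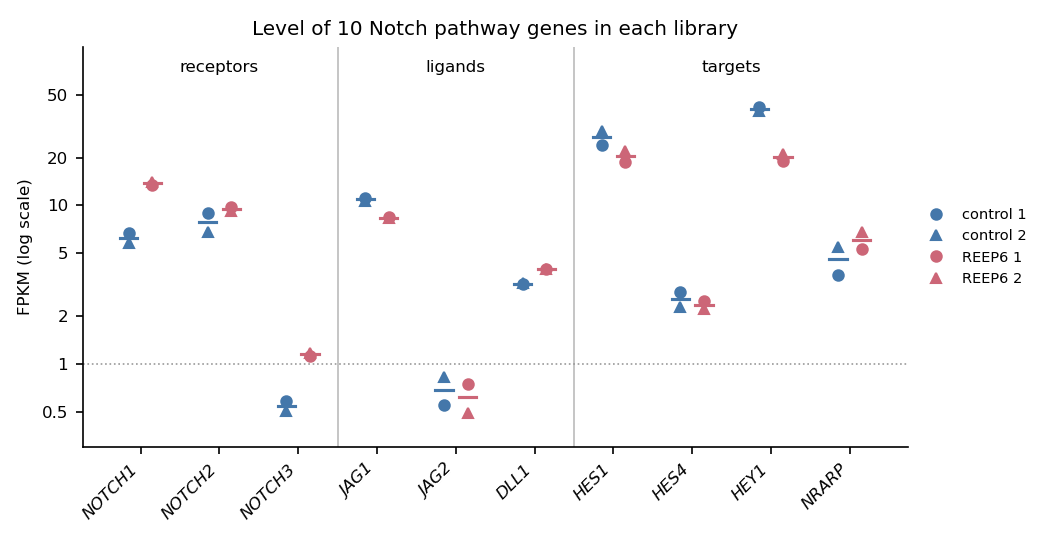
FPKM on a log scale for the 10 genes in each library, with points for libraries, short lines for the mean of 2 and a dotted line at the filter of 1 FPKM. The REEP6 points of NOTCH1 (13.5 and 14.1) and NOTCH3 lie above the control points, those of HEY1 (19.1 and 21.3) and JAG1 lie below, and JAG2, HES4 and NRARP overlap.

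In the controls the genes stood in the order HEY1 (mean 40.8 FPKM), HES1 (26.9), JAG1 (10.9), NOTCH2 (7.86), NOTCH1 (6.28), NRARP (4.57), DLL1 (3.20), HES4 (2.57), JAG2 (0.685) and NOTCH3 (0.546). Of neighbours in that order only JAG2 and NOTCH3 had overlapping values. With REEP6 the order became HES1 (20.5 FPKM), HEY1 (20.2), NOTCH1 (13.8), NOTCH2 (9.45), JAG1 (8.39), NRARP (6.09), DLL1 (3.96), HES4 (2.36), NOTCH3 (1.15) and JAG2 (0.619), and only HES1 and HEY1 overlapped among neighbours. NOTCH1 thus moved from below NOTCH2 and JAG1 to above both.

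NOTCH1 (ENSG00000148400, chromosome 9, 136494433 to 136545786, minus strand, GRCh38) codes for the receptor known both as an oncogene in T cells and as a tumour suppressor in squamous epithelium. Its level was 6.73 and 5.82 FPKM in the controls and 13.5 and 14.1 FPKM with REEP6, from 898, 919, 1852 and 1945 counts. Both REEP6 libraries were above both controls. NOTCH1 rose 2.24-fold, or by 1.16 ± 0.0975 on the log2 scale (SE, n = 2 per group, edgeR adjusted p 0.000159), and ranked 60 among the 1422 genes that rose. NOTCH1 was called in all 22 alternative analyses.

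NOTCH3 (ENSG00000074181, chromosome 19, 15159038 to 15200981, minus strand), a receptor best known from vascular smooth muscle, had a low level of 0.588 and 0.504 FPKM in the controls and 1.13 and 1.18 FPKM with REEP6, from 71, 72, 140 and 147 counts. Again the groups did not overlap. NOTCH3 rose 2.15-fold, or by 1.11 ± 0.198 on the log2 scale (SE, edgeR adjusted p 0.00422) and by 1.12 ± 0.221 in the fit without a filter. With limma on log2(FPKM + 1) it was 0.48 and the call ended (limma adjusted p 0.104).

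NOTCH2 (ENSG00000134250, chromosome 1, 119911553 to 120069626, minus strand), a receptor widely expressed in epithelium, had 8.95 and 6.78 FPKM in the controls and 9.73 and 9.17 FPKM with REEP6. The REEP6 values were above both controls, but control library 1 was close to them. Its log2 fold change was 0.29 ± 0.123 (SE, 95% interval 0.02 to 0.57, unadjusted) and did not pass (edgeR adjusted p 0.108). Without control library 1 it was 0.50 and passed (edgeR adjusted p 0.00294), and without control library 2 it was 0.13 (0.416). NOTCH2 has near-identical partial copies, of which NOTCH2NLA had 29 to 48 counts a library, so reads of these genes could be divided by the counting.

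The 3 receptors together summed to 16.3 and 13.1 FPKM in the controls and 24.3 and 24.4 FPKM with REEP6. NOTCH1 made up 41.4% and 44.4% of that sum in the controls and 55.4% and 57.7% with REEP6, while NOTCH2 went from 55.0% and 51.7% to 40.0% and 37.5%. Per length, NOTCH1 over NOTCH2 went from 0.752 and 0.858 to 1.39 and 1.54. These are descriptions of 2 libraries a group, and the smallest two-sided p of an exact permutation test of 2 against 2 is 0.333.

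**Figure D3:**
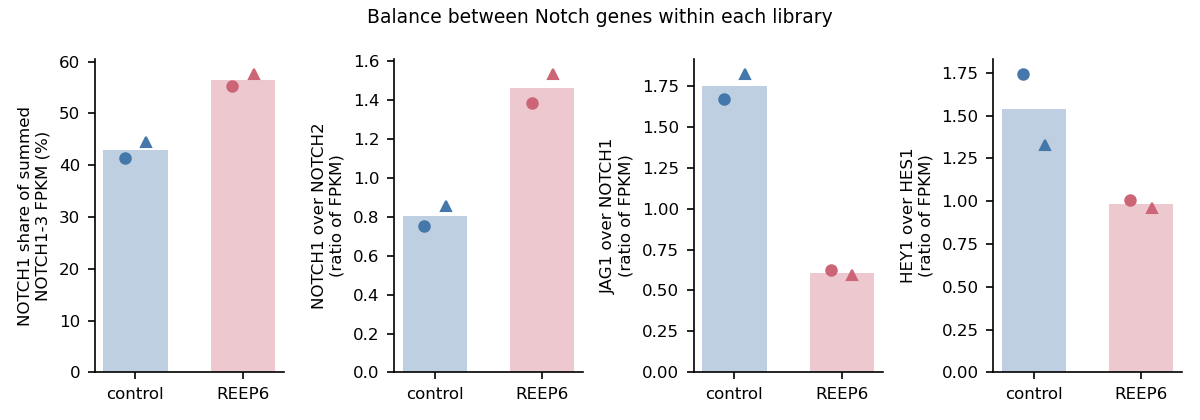
Balance between Notch genes in each library, with points for libraries (circle for replicate 1, triangle for replicate 2) and bars for the mean of 2, from FPKM values. NOTCH1 took 41.4% and 44.4% of the summed receptor FPKM in the controls, against 55.4% and 57.7% with REEP6, and JAG1 over NOTCH1 went from 1.67 and 1.82 to 0.626 and 0.593.

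Of the ligands, JAG1 (ENSG00000101384, chromosome 20, 10637684 to 10673999, minus strand), a Jagged ligand mutated in Alagille syndrome, had 11.2 and 10.6 FPKM in the controls and 8.43 and 8.35 FPKM with REEP6, from 1342, 1500, 1038 and 1033 counts. Both REEP6 libraries lay below both controls and agreed closely with each other. JAG1 fell by 0.35 on the log2 scale (SE 0.0873, edgeR adjusted p 0.0176), or 1.28-fold. The call ended without REEP6 library 1 (log2 fold change -0.37), without REEP6 library 2 (-0.34) and with a length correction (-0.25, edgeR adjusted p 0.0638). Its lowest edgeR adjusted p over the alternatives was 2.39e-06. That came with replicate number as a block, a fit that used a variance shared over genes. The only gene whose exons overlap it, an antisense gene, had 0 to 3 counts.

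DLL1 (ENSG00000198719, chromosome 6, 170282206 to 170306565, minus strand), a Delta-like ligand, had 3.18 and 3.22 FPKM in the controls and 3.96 in both REEP6 libraries. The groups did not overlap and the replicates were close, but with 132 to 170 counts a library the log2 fold change of 0.33 ± 0.163 (SE, 95% interval -0.03 to 0.70) did not pass (edgeR adjusted p 0.161). JAG2 (ENSG00000184916, chromosome 14, 105140981 to 105168824, minus strand), the other Jagged ligand, had 45 and 80 counts in the controls and 63 and 42 with REEP6, or 0.494 to 0.822 FPKM. Its groups overlapped. In the fit without a filter the log2 fold change was -0.11 (95% interval -0.65 to 0.42, from a variance shared over genes). A change of JAG2 was not detected at these counts and with replicates this far apart. JAG1 made up 75.1% and 72.4% of the summed FPKM of the 3 ligands in the controls and 64.2% and 65.2% with REEP6. JAG1 over NOTCH1, per length, went from 1.67 and 1.82 to 0.626 and 0.593.

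Of the 4 target genes HEY1 fell and the other 3 did not pass. HEY1 (ENSG00000164683, chromosome 8, 79764010 to 79767863, minus strand), a repressor of the hairy and enhancer-of-split family, was the most abundant Notch gene of the controls, with 42.0 and 39.5 FPKM there and 19.1 and 21.3 FPKM with REEP6. Counts were 1744 and 1943 against 816 and 914, and the groups did not overlap. HEY1 fell by 0.99 on the log2 scale (SE 0.0932, edgeR adjusted p 0.000299), or 1.98-fold, and ranked 205 among the 1854 genes that fell. It was called in all 22 alternative analyses, with values from -1.12 to -0.86.

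HES1 (ENSG00000114315, chromosome 3, 194136145 to 194138732, plus strand), the repressor whose paired RBPJ site is printed above, had 24.1 and 29.7 FPKM in the controls and 18.9 and 22.1 FPKM with REEP6. The REEP6 values were below both controls, but the replicates of each group differed by several FPKM. Its log2 fold change of -0.37 ± 0.126 (SE, 95% interval -0.65 to -0.08, unadjusted) missed the threshold (edgeR adjusted p 0.0606). HES1 was called lower with equal FPKM sums (-0.50, edgeR adjusted p 0.0145), in the fit without a filter (-0.35, 0.0307), without control library 1 (-0.51, 0.00625) or REEP6 library 2 (-0.47, 0.0216), with GC correction (-0.45, 0.0489) and with length correction (-0.45, 0.0355), while it was -0.18 without control library 2 (0.356). The ratio of HEY1 to HES1 went from 1.74 and 1.33 to 1.01 and 0.962.

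HES4 (ENSG00000188290, chromosome 1, 998962 to 1000172, minus strand), which carries the same paired site, was low and overlapped between groups. It had 2.85 and 2.29 FPKM in the controls and 2.5 and 2.22 FPKM with REEP6, from 41, 39, 37 and 33 counts. The log2 fold change was -0.09 (95% interval -0.81 to 0.63, edgeR adjusted p 0.866), an interval that holds the change of HES1 as well as none. NRARP (ENSG00000198435, chromosome 9, 137300482 to 137302251, minus strand) had 3.65 and 5.5 FPKM in the controls and 5.34 and 6.84 FPKM with REEP6, so control library 2 lay between the REEP6 libraries. Its log2 fold change was 0.43 ± 0.233 (SE, 95% interval -0.09 to 0.95, edgeR adjusted p 0.205). Without control library 2 it was 0.79 and passed (edgeR adjusted p 0.0344), and without control library 1 it was 0.17. Summed over HES1, HES4, HEY1 and NRARP the targets gave 72.5 and 77.0 FPKM in the controls and 45.9 and 52.4 FPKM with REEP6, most of it from HES1 and HEY1.

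**Figure D4:**
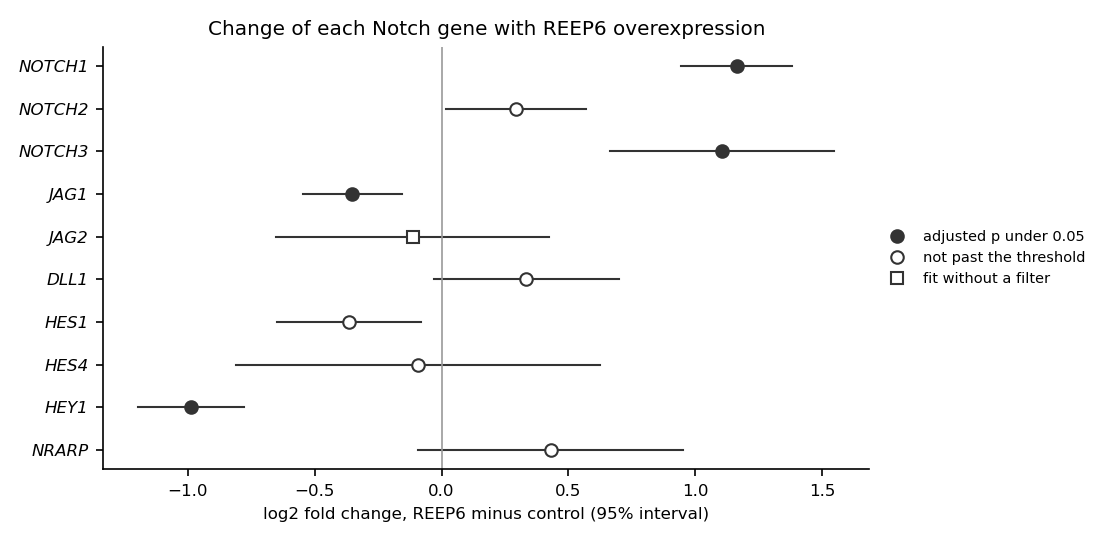
Log2 fold change (REEP6 minus control) of each Notch gene with its 95% interval, unadjusted, filled where the edgeR adjusted p is under 0.05 and square where the fit without a filter was used (JAG2). NOTCH1 (1.16) and NOTCH3 (1.11) lie to the right, HEY1 (-0.99) and JAG1 (-0.35) to the left, and the intervals of HES4, NRARP, DLL1 and JAG2 include 0.

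Marker genes of several lineages moved beside these changes, in both directions. Of 8 general and simple epithelial markers 4 were measured and KRT18 rose, by 0.36 on the log2 scale (edgeR adjusted p 0.0123). In 5 of the 8 the groups did not overlap, all higher with REEP6. That was so, in either direction, for 63.5% of all genes tested (28.2% higher) and for 45.1% of genes without a filter. The squamous list had 1 measured gene, ITGB4, which rose by 0.44 (edgeR adjusted p 0.00944). With equal FPKM sums neither of these rises was called. In the neuroendocrine list 3 of 7 measured genes fell (SCG2, SCG3 and the neuronal stathmin STMN2) and 0 rose. Over all genes tested 14.2% were called lower and 10.9% higher. The neuroendocrine list summed to 543 and 551 FPKM in the controls and 338 and 310 FPKM with REEP6. In the fibroblast list all 4 measured genes of 10 fell, beside the same 14.2%. That list summed to 36.6 and 34.5 FPKM against 18.3 and 18.1 FPKM. Most of it came from COL3A1 (25.2 and 22.1 against 14.5 and 13.9 FPKM). Of the 4 measured fibroblast genes, POSTN (1.57 and 1.70 against 0.456 and 0.289 FPKM) passed the filter only through the controls, which favours a fall. The defining markers DCN, FAP and THY1 were at or near 0 (at most 0.0127 FPKM). Without a filter, the fibroblast marker PDGFRA was called higher (0.663 and 0.709 against 0.986 and 1.06 FPKM, log2 fold change 0.62, edgeR adjusted p 0.0338). That fit also called the epithelial genes EPCAM (0.88) and ESRP1 (1.77) and the granin CHGA (0.29) higher, and the endothelial PECAM1 (-2.68) and the melanocyte regulator MITF (-0.80) lower. The CHGA groups overlapped (27.1 and 22.8 against 33.1 and 26.0 FPKM), and the main fit did not call CHGA (edgeR adjusted p 0.156). The squamous differentiation list, which Notch is known to act on in keratinocytes, had 2 of 12 genes measured, neither called, and 8 with 0 counts in every library. The endothelial and melanocyte lists had 0 measured genes and the leukocyte list 1, not called. What part these shifts have in the Notch values was not tested.

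The wider pathway was taken as 70 further genes in 7 roles. With 57 of them measured, 22 were called, 10 higher and 12 lower, beside 25.1% of all genes tested, and the median log2 fold change was 0.11 beside -0.01. No role moved in 1 direction, since each role with a call had members called both ways. The counts depended on the setting: 5 rose and 6 fell with a GC correction, which ended 12 of the 22 calls, and with limma on log2(FPKM + 1) 4 rose. ADAM10, EOGT, TLE3, TLE4, KDM5A, BCL6 and IL7R were called in every alternative at the 0.05 threshold that tested them.

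Among the proteases that cut the receptor, ADAM10, the sheddase of ligand-bound Notch, went from 10.2 ± 0.287 to 6.28 ± 0.146 FPKM (SD, n = 2 per group) and fell by 0.67 on the log2 scale (edgeR adjusted p 0.000971). Its relative ADAM17 had a log2 fold change of -0.31 and did not pass (edgeR adjusted p 0.0555). Of the gamma-secretase subunits, PSENEN rose (log2 fold change 1.09 ± 0.289 SE) from 1.39 ± 0.354 to 2.92 ± 0.213 FPKM, and APH1A rose by 0.35 on the log2 scale. A GC correction ended both subunit calls (edgeR adjusted p 0.0523 and 0.0996), as did leaving out REEP6 library 1, the PSENEN call also without control library 1 and the APH1A call with equal FPKM sums. PSEN2 (0.49), nicastrin (NCSTN, 0.06), APH1B (0.15) and FURIN (-0.21), which makes the first cut in the Golgi, did not pass.

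Sugar-adding enzymes modify the EGF repeats of Notch and so tune ligand binding. EOGT, which adds N-acetylglucosamine, fell 1.8-fold, from 4.62 ± 0.289 to 2.51 ± 0.199 FPKM (SD, n = 2 per group, edgeR adjusted p 0.00325). The O-glucose enzyme POGLUT1 fell by 0.47 on the log2 scale and the xylosyltransferase GXYLT1 by 0.52, and both calls ended with a GC correction. The POGLUT1 call also ended with DESeq2 and without control library 1, REEP6 library 1 or REEP6 library 2. The fringe gene LFNG, whose product favours Delta over Jagged ligands, rose by 0.29 on the log2 scale from 23.3 and 23.2 to 27.3 and 28.7 FPKM (edgeR adjusted p 0.0348), but 12 of 21 alternatives did not call it, the GC correction (edgeR adjusted p 0.186), equal FPKM sums and the removal of any 1 library among them. MFNG had 15.1 and 15.9 against 17.8 and 18.1 FPKM and did not pass.

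In the nuclear complex, RBPJ, the DNA-binding partner, went from 19.3 and 22.9 FPKM to 14.3 and 16 FPKM, and fell by 0.45 on the log2 scale (SE 0.106, edgeR adjusted p 0.0139). The coactivator MAML1 had 13.0 and 15.2 against 17.8 and 21.2 FPKM and rose by 0.49 (SE 0.112), and the acetyltransferase CREBBP rose by 0.31. All 3 calls ended with a GC correction (edgeR adjusted p 0.13, 0.0821 and 0.146) and with limma on log2(FPKM + 1). RBPJ was also not called without control library 2 or REEP6 library 1, MAML1 without REEP6 library 2, and CREBBP without any 1 of 3 libraries or with equal FPKM sums. Of the corepressors, the Groucho-family gene TLE3 rose by 0.54, whereas TLE4 of the same family fell by 0.55, CIR1 by 0.43 and the histone demethylase KDM5A by 0.41. The CIR1 call ended without any 1 library, with DESeq2 and with a GC correction.

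Among genes that turn over receptors and ligands, the ubiquitin ligase NEURL1B, which acts on ligands, rose 1.8-fold from 1.26 ± 0.149 to 2.23 ± 0.0916 FPKM (SD, n = 2 per group), and NUMBL, a relative of the Notch inhibitor NUMB, rose 1.49-fold. ITCH, a ligase for the receptor, fell by 0.44 on the log2 scale, and FBXW7, which marks the intracellular domain for degradation, fell by 0.47. The GC correction ended the calls of NUMBL, ITCH and FBXW7, limma on log2(FPKM + 1) those of NEURL1B, NUMBL and FBXW7, and the removal of a library those of NUMBL (control library 1), ITCH (REEP6 library 1) and FBXW7 (any but control library 1). The ligand ligases MIB1 (-0.19) and MIB2 (-0.22) did not pass.

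Of 12 other genes known as Notch targets in some tissue, IL7R, the interleukin 7 receptor, had 19.6 and 20.9 FPKM in the controls and 9.96 and 9.73 FPKM with REEP6, a fall of 1.01 on the log2 scale (SE 0.0898, edgeR adjusted p 0.000209). The repressor gene BCL6 fell 1.62-fold, from 7.68 ± 0.21 to 4.66 ± 0.127 FPKM (SD, n = 2 per group). HES6, a family member known to oppose HES1, rose from 3.13 and 3.45 to 4.82 and 6.53 FPKM, a log2 fold change of 0.81 ± 0.208 (SE), but neither limma on log2(FPKM + 1) nor the fit without REEP6 library 2 called it. HES7 (0.38), CCND1 (0.18), CDKN1A (0.26), NFKB2 (-0.06) and GATA3 (-0.23) did not pass, HES5 had 0 counts in all libraries, and HEY2, HEYL and HES2 stayed under 1 FPKM. The remaining receptor and ligands NOTCH4, DLL3, DLL4 and DLK1 also stayed under 1 FPKM, DLK2 passed 1 FPKM in 1 control library only, and the Notch-binding protein DNER, at 7.18 and 7.10 against 7.49 and 10.6 FPKM, did not pass.

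**Figure D5:**
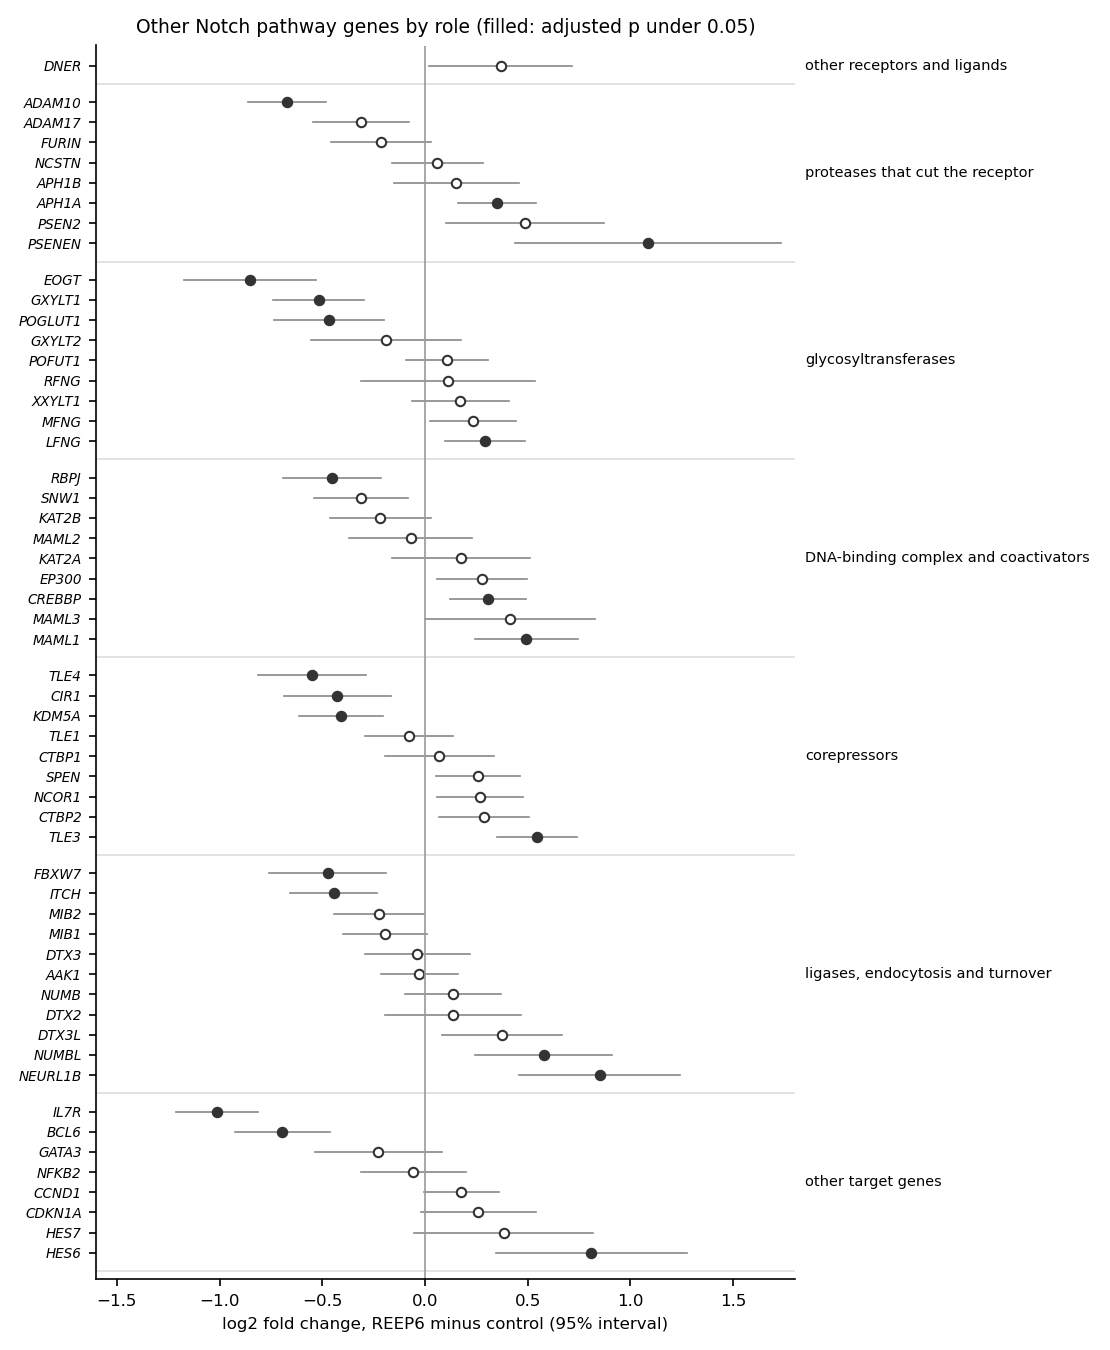
Log2 fold change (REEP6 minus control) of measured genes of the wider pathway with 95% intervals, unadjusted, grouped by role and filled where the edgeR adjusted p is under 0.05. Within each role that has filled points they lie on both sides of 0, from IL7R (-1.01) to PSENEN (1.09).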

How the data were processed

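RNA of 4 samples was analysed, 2 labelled REEP6 overexpression and 2 negative control, grouped by sample title. For each sample the authors deposited raw counts and FPKM of 51103 Ensembl genes. The submitters' processing notes list HISAT2, HTSeq 0.13.5 and GRCh38, without roles. How strand and multiply matching reads were treated, and which annotation was used, is not given in the sources used here. Overlapping, antisense and paralogous genes cannot be separated. Dividing count by FPKM and library total gave 1 length per gene for 100% of 29161 genes with a count (relative tolerance 0.0001), which shows that the authors' FPKM uses the sum of all gene counts as its library size. Replicates differed by more than counting noise (chi-square per degree of freedom 10.6 in the controls and 6.24 with REEP6).

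Genes with at least 1 FPKM in at least 2 libraries (13077) entered the quasi-likelihood test of edgeR 4.0.16 (R 4.3.3) on counts, with TMM factors (1.01, 1.01, 0.986 and 0.995), 1 group term and 2 residual degrees of freedom. Tests were two-sided, adjusted over all genes tested by Benjamini-Hochberg at 0.05. The standard error is the log2 fold change over the square root of F. In the fit without a filter, intervals and p-values used a variance shared over genes, not each gene's own replicate spread. The same held for p-values with a replicate block and with either REEP6 library left out. With the block the edgeR adjusted p of NOTCH1 was 5.1e-63, against 0.000159 in the main fit. The method was tested on simulated counts for 13077 genes. It recovered 58% of 100 changes of 1.5-fold, 74% of 50 of 2-fold and 92% of 50 of 3-fold, with 9 false calls. The simulated counts held no effect of GC content or of replicate number. DESeq2 1.42.0, limma 3.58.1 on log2(FPKM + 1), other scalings, filters, corrections by a loess (span 0.3) on GC content or gene length, and fits without 1 library were among 22 alternatives. Fits without 1 library leave 1 sample in a group, which is assumed to vary like the other group. Coordinates and GC content are from GENCODE release 29 (GRCh38), where all 51103 identifiers were found, and promoter sequences are from RefSeq (GRCh38.p14).

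The 10 genes, the lists of 70 pathway and 74 marker genes and the alternatives were chosen with earlier results of these data known. Named were REEP6, the 10 genes and up to 4 called genes with the smallest p per role. Other genes were named after their values were seen, to complete a role or a small count. Some genes of these lists are counted but not reported here by name.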

Additional observations from a re-analysis of the deposited data

How the results depend on the processing

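NOTCH1, HEY1 and REEP6 kept their direction and call in 22 of 22 alternatives. Among the other values, NOTCH2 passed without a filter (0.31), with a replicate block (0.30) and with length correction (0.42), and ranged from 0.13 to 0.50 with 1 library left out. NOTCH3 did not pass with limma at a pseudocount of 1 (0.48), 0.1 (0.96) or 5 (0.15). JAG1 did not pass at an adjusted p of 0.01 (-0.35) or with length correction (-0.25), and ranged from -0.37 to -0.31 with 1 library left out. HES1 passed with equal FPKM sums (-0.50), no filter (-0.35), a replicate block (-0.36), GC correction (-0.45) and length correction (-0.45), and ranged from -0.51 to -0.18 with 1 library left out. HES4 ranged from -0.22 to 0.06 with 1 library left out and changed sign without control library 1 (0.06), not called in either direction. NRARP passed with a replicate block (0.44) and ranged from 0.17 to 0.79 with 1 library left out. The cause of these changes was not tested. Calls without a filter or with a replicate block used a variance shared over genes.

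Counts of called genes moved as follows. Over all genes, 1422 rose and 1854 fell, against 495 and 897 at an adjusted p of 0.01, 648 and 2832 with equal FPKM sums, 2957 and 3062 with a replicate block, 634 and 1272, 597 and 1233, and 642 and 1300 with limma at pseudocounts of 1, 0.1 and 5, 936 higher with a minimum of 5 FPKM and 1226 lower with GC correction. With 1 library left out 940 to 1495 rose and 1272 to 1717 fell. Of the 10 Notch genes 2 rose and 2 fell, against 1 higher with a minimum of 5 FPKM or limma at each of the 3 pseudocounts, 4 higher with a replicate block, 1 lower at an adjusted p of 0.01, and 2 to 3 higher and 1 to 3 lower with 1 library left out. Of the wider pathway 10 rose and 12 fell, against 3 and 7 at an adjusted p of 0.01, 16 higher without a filter, 6 higher with a minimum of 5 FPKM, 4 higher with limma at each pseudocount, 21 higher with a replicate block, 5 and 6 with GC correction, 19 lower with equal FPKM sums, and 6 to 11 higher and 8 to 11 lower with 1 library left out. Of the marker genes 2 rose and 7 fell, against 1 higher at an adjusted p of 0.01 or with GC correction, 0 with equal FPKM sums, 6 without a filter, 4 with edgeR's own filter and 5 with a replicate block.

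The labels do not say what a shared replicate number stands for, and with 2 pairs it was used as a block only as an alternative. Differences between replicates correlated across genes at 0.271 between the groups. Counts of 33 to 41 for HES4 and 42 to 80 for JAG2 limit the precision for these genes. NOTCH3, DLL1 and HES4 were not tested with a minimum of 5 FPKM, and JAG2 was tested without a filter and with edgeR's own filter only.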
